A study of Mus musculus with 9 samples.

Results

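The cationic and large neutral amino acid transporters described here are 10 genes, chosen by name as rows of a table of 35275 genes. They are Slc7a1, Slc7a2, Slc7a3, Slc7a5, Slc7a6 and Slc7a7, the Slc1 carriers Slc1a3, Slc1a4 and Slc1a5, and Slc3a2. The last is the heavy chain partner of Slc7a5, Slc7a6 and Slc7a7. RNA was sequenced from mouse embryonic fibroblasts (MEFs) of strain C57Bl/6, with 3 libraries in each of 3 treatments. The con libraries came from cells in iso-osmolar (300 mOsm) medium without added sucrose. The lo500 libraries came from cells given 200 mM sucrose for 3 h, for a total of 500 mOsm (low-intensity hyperosmotic stress), and the hi600 libraries from cells given 300 mM sucrose for 3 h, for a total of 600 mOsm (high-intensity stress). The paper describes the cells as wild type, and all groups shared the same medium, with serum and added glutamine. The labels do not say whether the libraries came from separate cultures or embryos, so the p-values below measure only the spread between these libraries.

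Cells cannot make several of the amino acids that these proteins carry, and most carriers described here work at the plasma membrane. The Slc7 family splits into cationic amino acid transporters and light chains. The former are single proteins that bring in arginine, lysine and ornithine, and the latter exchange one amino acid for another. The light chains described here reach the membrane only when bound to the glycoprotein encoded by Slc3a2 (CD98 heavy chain). The Slc1 family holds sodium-coupled carriers of glutamate and exchangers of small neutral amino acids and glutamine. Cells in hyperosmotic medium lose water and accumulate small organic solutes, amino acids among them, and the comparison asks how the RNA of these carriers differed between moderate and severe stress.

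All 10 genes are protein-coding, and the positions are those of mm10. The cationic carriers are Slc7a1 at chr5:148327410-148399904, Slc7a2 at chr8:40862396-40922308 and Slc7a3 at chrX:101079210-101086020. The light chains are Slc7a5 at chr8:121881150-121907694, Slc7a6 at chr8:106168875-106198704 and Slc7a7 at chr14:54369444-54409472, and Slc3a2 lies at chr19:8706882-8723369. The Slc1 carriers are Slc1a3 at chr15:8634124-8710764, Slc1a4 at chr11:20302180-20332713 and Slc1a5 at chr7:16781346-16798274. In the GENCODE M21 annotation, exons of Slc7a7 share 232 bases with Oxa1l on the opposite strand, a gene with 1505 to 1952 counts per library, and exons of Slc7a2 share 635 bases with Gm26584, which had at most 1 count. The sources used here do not say whether the counting used strand. No member shared 200 or more aligned bases with another member at an identity of 95% or above.

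RefSeq promoter windows (build GRCm38.p6, 250 bases before the transcript start and 50 after it) were matched by symbol for 6 of the 10 members. They are shown for the 3 members whose RNA at 600 mOsm differed from that of the iso-osmolar libraries, cut to 280 bases. Slc1a3 is chr15:8710778-8711057, Slc1a4 is chr11:20332684-20332963 and Slc7a1 is chr5:148399875-148400154, all on the minus strand and written 5' to 3'. Capitals mark matches on either strand to TGATGNAA (the core of the C/EBP-ATF element read by Atf4), TGGAAA (the core bound by TonEBP) and GGGCGG (the GC box bound by Sp proteins).
Slc1a3: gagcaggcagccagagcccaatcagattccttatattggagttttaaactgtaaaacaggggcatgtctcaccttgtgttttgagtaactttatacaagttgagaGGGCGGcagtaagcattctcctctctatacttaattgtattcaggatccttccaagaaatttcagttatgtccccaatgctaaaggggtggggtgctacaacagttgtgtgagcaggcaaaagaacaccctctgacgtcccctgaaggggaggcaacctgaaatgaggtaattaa
Slc1a4: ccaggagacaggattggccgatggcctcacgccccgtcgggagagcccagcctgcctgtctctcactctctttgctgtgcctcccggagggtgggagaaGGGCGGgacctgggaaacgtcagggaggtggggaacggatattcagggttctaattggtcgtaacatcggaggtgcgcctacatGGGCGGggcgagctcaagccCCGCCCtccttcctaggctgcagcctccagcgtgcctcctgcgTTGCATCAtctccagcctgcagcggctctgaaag
Slc7a1: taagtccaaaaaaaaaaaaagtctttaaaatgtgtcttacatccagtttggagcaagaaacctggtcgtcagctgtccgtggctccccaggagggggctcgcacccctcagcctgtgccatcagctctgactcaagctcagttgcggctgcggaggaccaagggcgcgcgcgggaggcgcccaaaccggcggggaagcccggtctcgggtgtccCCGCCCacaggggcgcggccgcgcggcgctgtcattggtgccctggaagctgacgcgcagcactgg
The Slc1a4 window held the reverse complement of TGATGNAA at -4 from the transcript start and GC boxes at -151, -67 and -47. The Slc1a3 window held 1 GC box at -145 and the Slc7a1 window 1 GC box at -36, and a second RefSeq window of Slc7a1 held none of the motifs. TGGAAA was absent from these windows and was found in 1 of 5 windows of Slc7a7, a member that was not called. TGATGNAA was also found in 2 of the 5 Slc7a7 windows, which overlap each other, at -141 and -1 in one and at -243 in the other, the last being the same site as that at -1. GGGCGG was also found in windows of Slc7a6, Slc7a7 and Slc3a2, which were not called at 600 mOsm, and so in every member with a window. Among all 32851 RefSeq promoter windows, 3.97% held TGATGNAA, 21.4% TGGAAA and 35.7% GGGCGG. A match of letters does not show that a factor binds.

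Each library had between 21716042 and 26740832 counts on genes, and 3 counts, the floor used here, were worth 0.112 to 0.138 CPM, the count after scaling every library to the same total. That floor covers counting error only. All 9 replicate pairs differed by more than sampling noise, with a chi-square per degree of freedom of 5.25 to 15.9. Of 11 fibroblast markers, 9 were above 1 FPKM in every library, while Dcn and Lum were at or near 0. All 11 summed to 5500 to 5585 FPKM in the iso-osmolar libraries, 5384 to 5640 at 500 mOsm and 6237 to 6296 at 600 mOsm. Single markers went different ways. Col1a1 averaged 1515, 1498 and 1879 FPKM and Pdgfrb 49.2, 55.3 and 59.4, while Col3a1 averaged 8.57, 3.55 and 5.39 and Pdgfra 5.77, 3.55 and 3.56. Markers of other cell types moved with treatment too. The summed FPKM of 4 endothelial markers was 0.202 to 0.246 in the iso-osmolar libraries, 3.36 to 3.83 at 500 mOsm (Pecam1 alone averaged 3.25) and 0.577 to 0.901 at 600 mOsm. That of 5 epithelial markers was 0.0317 to 0.237, 1.08 to 1.49 and 0.117 to 0.275, with Cdh1 averaging 0.784 FPKM at 500 mOsm. That of 4 blood and macrophage markers was 6.12 to 9.77, 8.22 to 19.1 and 8.15 to 17.2. Of these 4, Lyz2 averaged 3.92, 8.09 and 9.73 FPKM, with single libraries from 2.55 to 14.8. Csf1r averaged 2.39, 3.10 and 2.09 FPKM and Cd68 1.05, 1.32 and 1.32, with Ptprc at or near 0. The 4 muscle markers summed to less than 0.2 FPKM in every library, with Myog at 0. The part of these markers in the results below was not tested. Since these are bulk libraries, fewer cells expressing a gene and less RNA per cell cannot be told apart.

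Levels are given as FPKM, which scales counts to gene length and library total and so can be compared between genes. In iso-osmolar MEFs the leading members were the partners Slc7a5, at 107.98 ± 1.996 FPKM (SD, n = 3), and Slc3a2, at 106.7 ± 1.17 FPKM (SD, n = 3), whose libraries overlapped. Slc1a5 and Slc7a6 followed at 35.1 FPKM each, then Slc7a1 at 24.8, Slc1a4 at 17.9 and Slc1a3 at 12.0 FPKM, and these last 3 were separated by more than the spread of their libraries. Slc7a2 stood at 2.82 FPKM, and Slc7a7 and Slc7a3 were lowest at 0.132 and 0.114 FPKM, with overlapping libraries. These last 2 genes had 5 to 9 and 7 to 8 counts per iso-osmolar library, few but above the floor of 3 counts. The 10 members summed to 342.7 ± 0.176 FPKM in iso-osmolar libraries, 320.7 ± 6.24 at 500 mOsm and 329.4 ± 4.47 at 600 mOsm (SD, n = 3 each).

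**Figure D1:**
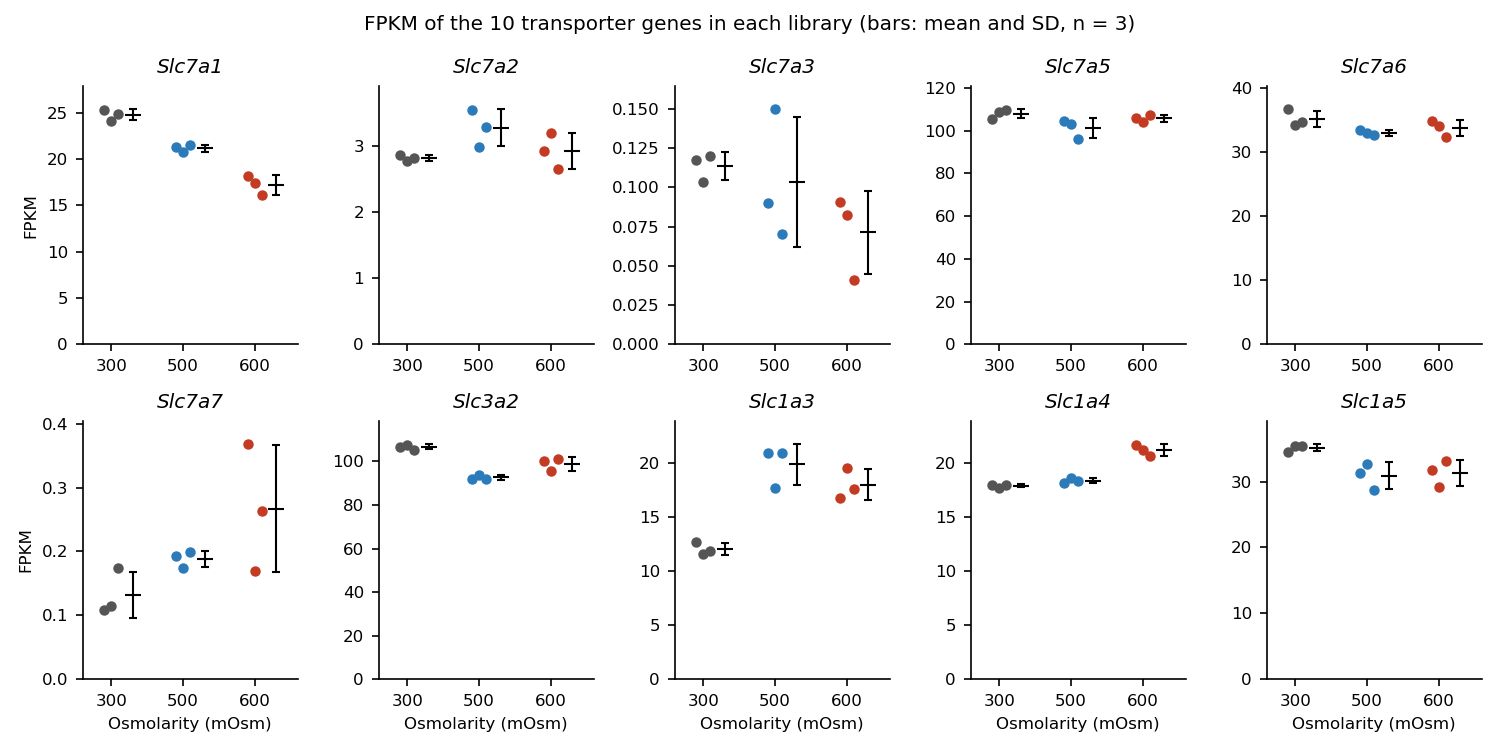
FPKM (vertical axis, from 0, a scale of its own in each panel) of the 10 members at 300, 500 and 600 mOsm, with 1 point per library and the mean and SD of 3 libraries beside the points. Slc7a1 steps down from 24.8 to 21.2 and 17.2 FPKM, Slc1a3 is higher in every stressed library than in every iso-osmolar one, and the 600 mOsm libraries of Slc1a4 lie above all others.

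Genes were tested on counts, with edgeR's quasi-likelihood test over all 9 libraries and Benjamini-Hochberg adjustment over the 13082 genes that passed its filter on low counts, and a gene was called at an adjusted p under 0.05. Of the 10 members, 9 passed the filter and Slc7a3 did not. Slc7a7 passed it narrowly and through stressed libraries, where it was highest, with an average of -0.99 on the log2 CPM scale. At 500 mOsm, 1 member was higher than in iso-osmolar libraries (Slc1a3) and 2 were lower (Slc7a1 and Slc3a2), beside 13.2% of all genes tested called higher and 14.8% called lower. At 600 mOsm, 2 members were higher (Slc1a3 and Slc1a4) and 1 was lower (Slc7a1), beside 15.1% and 20% of all genes. Between the stress intensities, 1 member was higher at 600 than at 500 mOsm (Slc1a4) and 1 was lower (Slc7a1), beside 11.9% and 17.2% of all genes. The median log2 fold change of the 9 members tested was -0.09, -0.01 and 0.05 in these comparisons, and that of all genes tested was 0.01 in each. After counts were corrected for GC content and length, a step added after the data were seen, 6, 6 and 1 members were called in place of 3, 3 and 2. Of all 13022 genes tested in that fit, 4399, 4947 and 4121 were called. In the main fit, of 13082 genes, 1728 were called higher and 1931 lower at 500 mOsm, 1977 and 2617 at 600 mOsm and 1560 and 2250 between the intensities. Without replicate 2 of lo500 the count of members at 500 mOsm was 5, beside 3242 of 13320 genes. Both comparisons with iso-osmolar medium use the same 3 con libraries, so their values are given side by side and are not independent of each other.

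**Figure D2:**
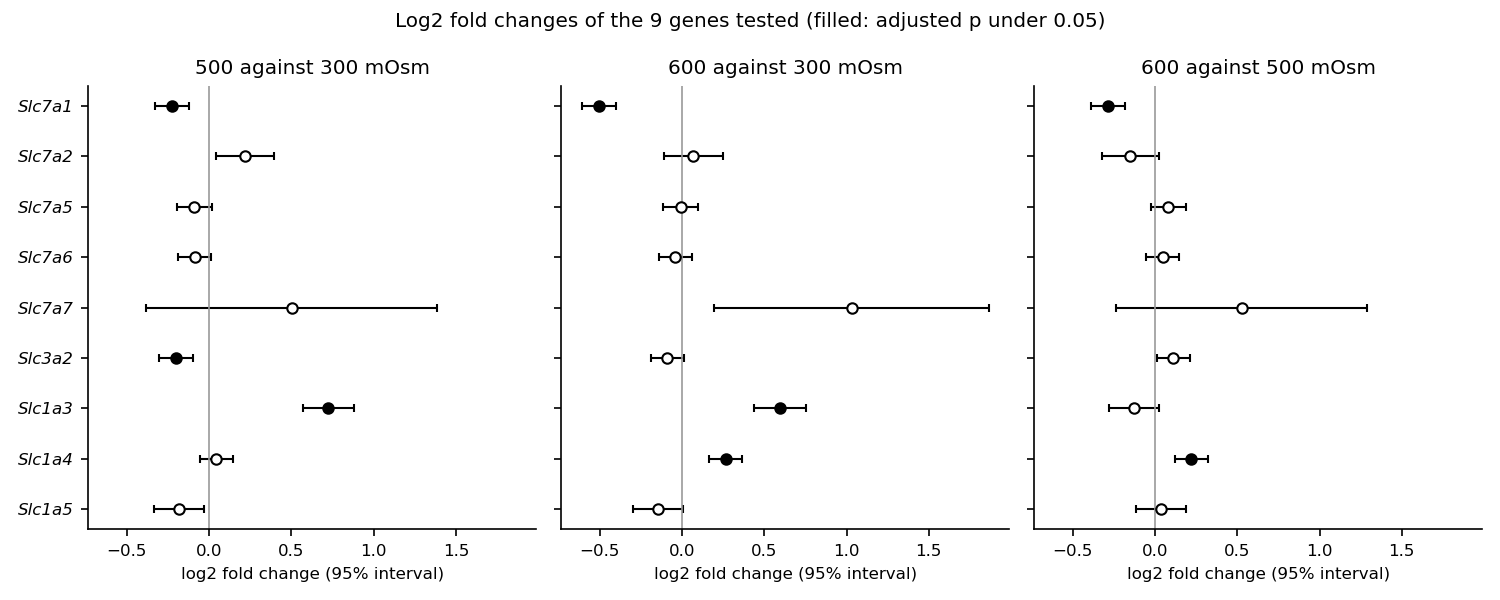
Log2 fold changes (horizontal axis) of the 9 members tested by edgeR in the 3 comparisons, with 95% intervals, filled where the adjusted p was under 0.05. Slc7a1 lies below 0 in all 3 panels, Slc1a3 above 0 in both comparisons with 300 mOsm, and the wide intervals of Slc7a7 reflect its 5 to 19 counts per library.

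Slc7a1 encodes CAT1, the main carrier of arginine and lysine in most dividing cells, and its RNA fell at each step of osmolarity. It measured 25.3, 24.1 and 24.9 FPKM in the iso-osmolar libraries, 21.3, 20.7 and 21.5 FPKM at 500 mOsm and 18.1, 17.4 and 16.1 FPKM at 600 mOsm. The 3 treatments did not overlap. By edgeR, its log2 fold change against iso-osmolar was -0.22 ± 0.047 (SE) at 500 mOsm (adjusted p = 0.00316) and -0.51 ± 0.048 at 600 mOsm (adjusted p = 5.73e-06). The step from 500 to 600 mOsm was -0.28 ± 0.048 (SE, edgeR adjusted p = 0.000708). Slc7a1 has one of the longest gene models among the members, at 7179 bases. In the fit corrected for GC content and length, its change at 600 mOsm against iso-osmolar was -0.30 (adjusted p = 6.16e-05), and the step from 500 to 600 mOsm was -0.10 and no longer called (adjusted p = 0.0737, the highest of 19 alternatives, which began at 9.98e-06).

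Slc7a2, which encodes CAT2, a carrier of the same substrates known for its induction in activated macrophages, was not called in any comparison. Its libraries gave 2.86, 2.78 and 2.82 FPKM in iso-osmolar medium, 3.55, 2.99 and 3.29 FPKM at 500 mOsm and 2.92, 3.20 and 2.65 FPKM at 600 mOsm. The 500 mOsm libraries lay above the iso-osmolar ones, and the 600 mOsm libraries overlapped both. The log2 fold change by edgeR was 0.22 ± 0.081 (SE) at 500 mOsm (adjusted p = 0.0646), with a 95% interval of 0.04 to 0.39, and 0.07 ± 0.082 at 600 mOsm (adjusted p = 0.550), with an interval of -0.11 to 0.25. With 7910 bases it has the longest gene model of the 10, and the correction for GC content and length called it higher at 500 mOsm (0.26, adjusted p = 0.00542) and at 600 mOsm (0.34, adjusted p = 0.000803). Over 19 alternatives these adjusted p-values ran up to 0.213 and 0.920.

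Slc7a3, which encodes CAT3, had 7, 7 and 8 counts in the iso-osmolar libraries, 6, 11 and 5 at 500 mOsm and 6, 5 and 3 at 600 mOsm. These counts overlap between treatments and are too few for a difference of moderate size to be detected. Together the 3 cationic carriers summed to 27.7 ± 0.644 FPKM in iso-osmolar libraries, 24.6 ± 0.586 at 500 mOsm and 20.2 ± 1.27 at 600 mOsm (SD, n = 3 each). Slc7a1 made up 89.4% ± 0.0710 of that sum in iso-osmolar libraries, 86.3% ± 0.759 at 500 mOsm and 85.2% ± 0.894 at 600 mOsm (SD, n = 3 each).

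Slc3a2 encodes the CD98 heavy chain, which carries the light chains to the membrane and also binds integrins, and it fell at 500 mOsm. Its libraries gave 106.9, 107.8 and 105.5 FPKM in iso-osmolar medium, 92.0, 93.98 and 92.0 FPKM at 500 mOsm and 100.1, 95.4 and 101.2 FPKM at 600 mOsm. In FPKM the treatments did not overlap, and the lowest level was that at 500 mOsm, with 600 mOsm in between. After the scaling used in the edgeR test, replicate 2 of hi600 (265.8 CPM) lay just under replicate 2 of lo500 (266.5 CPM). By edgeR the log2 fold change was -0.20 ± 0.047 (SE) at 500 mOsm (adjusted p = 0.0057) and -0.09 ± 0.047 at 600 mOsm (adjusted p = 0.157), the latter with a 95% interval of -0.19 to 0.01. The difference between 600 and 500 mOsm was 0.11 ± 0.047 and was not called (edgeR adjusted p = 0.0937). At 600 mOsm the value against iso-osmolar was called lower in 3 of 19 alternatives, among them the correction for GC content and length (-0.13, adjusted p = 0.00971), and over all 19 the adjusted p ran up to 0.451.

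None of the light chains was called. Slc7a5 encodes LAT1, which brings in leucine and other large neutral amino acids in exchange for glutamine. It gave 105.7, 108.7 and 109.5 FPKM in iso-osmolar libraries, 104.6, 103.0 and 95.996 FPKM at 500 mOsm and 106.2, 104.1 and 107.4 FPKM at 600 mOsm. The 500 mOsm libraries lay under the iso-osmolar ones, most of all the last, while the 600 mOsm libraries overlapped both. The log2 fold change was -0.09 ± 0.049 (SE) at 500 mOsm, with a 95% interval of -0.20 to 0.02 (edgeR adjusted p = 0.205). At 600 mOsm it was -0.01 ± 0.049, with an interval of -0.12 to 0.10 (edgeR adjusted p = 0.911), so a change of more than about 0.12 in either direction lay outside the interval. Its change at 500 mOsm was called only after the correction for GC content and length (-0.11, adjusted p = 0.0282, the lowest of 19 alternatives that ran up to 0.517).

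Slc7a6 encodes y+LAT2, which sends out a cationic amino acid in exchange for a neutral one and sodium. Its libraries ran from 34.1 to 36.6 FPKM in iso-osmolar medium, 32.6 to 33.4 FPKM at 500 mOsm and 32.3 to 34.7 FPKM at 600 mOsm. The 500 mOsm libraries lay under the iso-osmolar ones, and the 600 mOsm libraries overlapped both. Its log2 fold change was -0.09 ± 0.046 (SE) at 500 mOsm and -0.04 ± 0.046 at 600 mOsm (edgeR adjusted p = 0.187 and 0.533), with intervals of -0.19 to 0.01 and -0.14 to 0.06. Slc7a7 encodes y+LAT1, the related exchanger of gut and kidney epithelium, and had 5, 6 and 9 counts in iso-osmolar libraries, 10, 10 and 11 at 500 mOsm and 19, 8 and 15 at 600 mOsm. Only the 600 mOsm libraries overlapped those of both other treatments. The log2 fold change at 600 mOsm was 1.03 ± 0.38 (SE), with an interval of 0.20 to 1.86 and no call (edgeR adjusted p = 0.0541). Without replicate 2 of the 600 mOsm libraries it was 1.26 (adjusted p = 0.0251, the lowest of 15 alternatives that ran up to 0.220). Slc7a7 passed the filter through stressed libraries, where it was highest, so neither value is read as a result. Oxa1l, which shares exon bases with Slc7a7, had at least 1505 counts in every library, and its part in these few counts was not tested.

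The ratio of Slc3a2 to the summed FPKM of Slc7a5, Slc7a6 and Slc7a7 sets the heavy chain's RNA against that of its light chains. It was 0.750, 0.754 and 0.731 in the iso-osmolar libraries, 0.666, 0.691 and 0.715 at 500 mOsm and 0.708, 0.691 and 0.723 at 600 mOsm. Every stressed library lay under every iso-osmolar one, and both stress intensities overlapped. The log2 ratio was lower by an average of -0.11 at 500 mOsm and -0.08 at 600 mOsm than in iso-osmolar medium (p = 0.1 each, exact two-sided permutation test, the smallest p that 3 against 3 libraries allow). Between 600 and 500 mOsm the difference was 0.04 (p = 0.5, same exact test). Slc7a5 held a like share of the light chains' FPKM in each treatment, 75.4% ± 1.01, 75.3% ± 0.661 and 75.7% ± 0.865 (SD, n = 3 each).

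**Figure D3:**
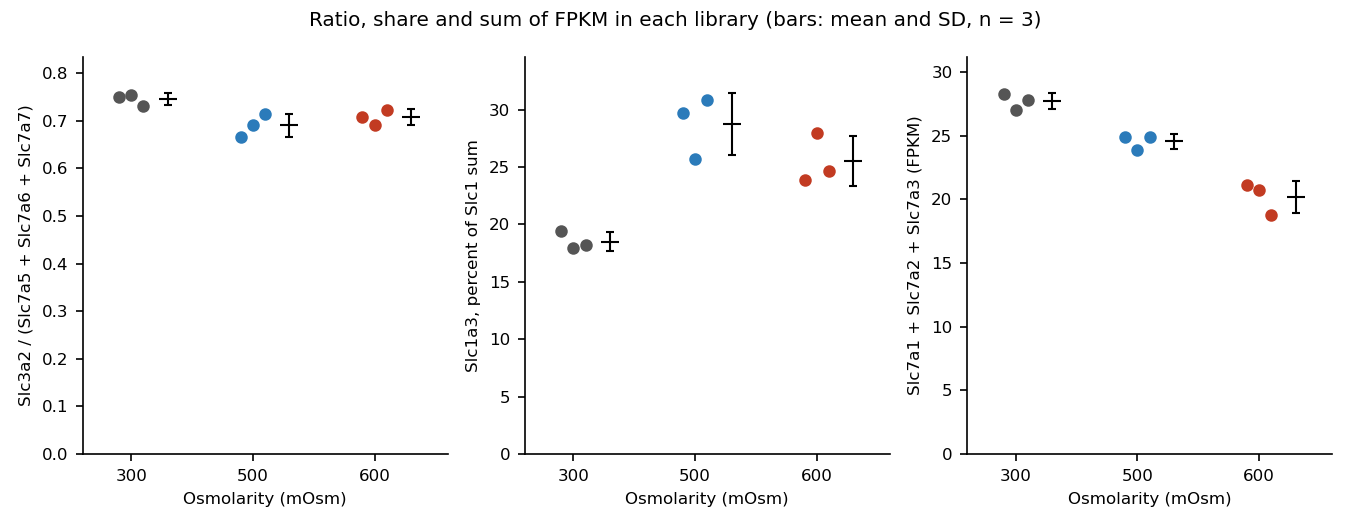
Per library and by osmolarity, the ratio of Slc3a2 to its light chains (left, no unit), the percent of the summed Slc1 FPKM taken by Slc1a3 (middle) and the summed FPKM of the cationic carriers (right), with the mean and SD of 3 libraries beside the points and axes from 0. The ratio moves from 0.745 to 0.690 and 0.707, the Slc1a3 share from 18.5% to 28.7% and 25.5%, and the cationic sum from 27.7 to 24.6 and 20.2 FPKM.

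Slc1a3 encodes EAAT1, also called GLAST, a sodium-driven carrier of glutamate and aspartate best known from astrocytes. Its RNA rose under both stress intensities. It measured 12.7, 11.6 and 11.9 FPKM in iso-osmolar libraries, 20.9, 17.7 and 20.9 FPKM at 500 mOsm and 16.8, 19.6 and 17.6 FPKM at 600 mOsm. Every stressed library exceeded every iso-osmolar one, and the libraries of both stress intensities overlapped. By edgeR, it was 1.65-fold higher at 500 mOsm (log2 fold change 0.72 ± 0.072 (SE), adjusted p = 7.04e-06) and 1.51-fold higher at 600 mOsm (0.60 ± 0.072, adjusted p = 4.51e-05). The difference between 600 and 500 mOsm was -0.13 ± 0.070, with a 95% interval of -0.28 to 0.02 (edgeR adjusted p = 0.199). Of 6 glial and neural markers, Gfap, Sox10 and Aldh1l1 stayed under 0.2 FPKM in every library. Sox2 averaged 2.67 FPKM in iso-osmolar libraries, 1.02 at 500 mOsm and 1.53 at 600 mOsm, Tubb3 0.719, 1.76 and 0.893, and Map2 1.81, 2.26 and 2.15. The sum of the 6, in which these differences partly cancel, was 4.97 to 5.64 FPKM in iso-osmolar libraries, 4.82 to 5.89 at 500 mOsm and 4.48 to 5.07 at 600 mOsm.

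Slc1a4 encodes ASCT1, an exchanger of alanine, serine, cysteine and threonine, and it rose at 600 mOsm. Its libraries gave 18.0, 17.8 and 18.0 FPKM in iso-osmolar medium, 18.2, 18.6 and 18.4 FPKM at 500 mOsm and 21.7, 21.3 and 20.7 FPKM at 600 mOsm. The 600 mOsm libraries lay well above the others, and the 500 mOsm libraries lay just above the iso-osmolar ones. The log2 fold change by edgeR was 0.04 ± 0.046 (SE) at 500 mOsm (adjusted p = 0.547), with an interval of -0.06 to 0.14, and 0.26 ± 0.046 at 600 mOsm (adjusted p = 0.000788). The difference between 600 and 500 mOsm, tested directly, was 0.22 ± 0.046 (SE, edgeR adjusted p = 0.00297), or 1.17-fold. Slc1a4 was the only member called higher at high-intensity than at low-intensity stress.

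Slc1a5 encodes ASCT2, a glutamine exchanger of dividing cells, and was not called in any comparison. It gave 34.5, 35.4 and 35.4 FPKM in iso-osmolar libraries, 31.3, 32.7 and 28.7 FPKM at 500 mOsm and 31.7, 29.1 and 33.05 FPKM at 600 mOsm. All iso-osmolar libraries lay above all stressed ones, which overlapped each other. The log2 fold change was -0.18 ± 0.069 (SE) at 500 mOsm, with a 95% interval of -0.33 to -0.03, and -0.15 ± 0.069 at 600 mOsm, with an interval of -0.29 to 0.00457 (edgeR adjusted p = 0.0680 and 0.123). The value at 500 mOsm was called lower in 9 of 19 alternatives, whose adjusted p ran from 0.00279 to 0.218, and that at 600 mOsm after the correction for GC content and length (-0.22, adjusted p = 0.0013, with the others up to 0.377). The Slc1 carriers summed to 65.1 ± 0.273 FPKM in iso-osmolar libraries, 69.1 ± 1.21 at 500 mOsm and 70.5 ± 0.682 at 600 mOsm (SD, n = 3 each). Of that sum, Slc1a5 took 53.97% ± 0.924, 44.6% ± 2.63 and 44.4% ± 2.47, and Slc1a3 took 18.5% ± 0.801, 28.7% ± 2.71 and 25.5% ± 2.17.

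These changes altered the order of the middle of the group, while its top and bottom kept their places. In iso-osmolar libraries the order was Slc7a1, Slc1a4, Slc1a3, with no overlap between neighbours. At 500 mOsm the means were 21.2 FPKM for Slc7a1, 19.9 for Slc1a3 and 18.4 for Slc1a4, and each overlapped the next. At 600 mOsm Slc1a4 led with 21.2 FPKM, above and clear of Slc1a3 at 17.97 and Slc7a1 at 17.2 FPKM, which overlapped. Slc1a5 and Slc7a6, just above these 3 genes, swapped places by mean but overlapped at every osmolarity. Slc7a5 and Slc3a2 stayed the top pair at every osmolarity, no longer overlapping at 500 and 600 mOsm. These FPKM carry no correction for GC content and length, after which the step of Slc7a1 from 500 to 600 mOsm was -0.10 and not called.

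**Figure D4:**
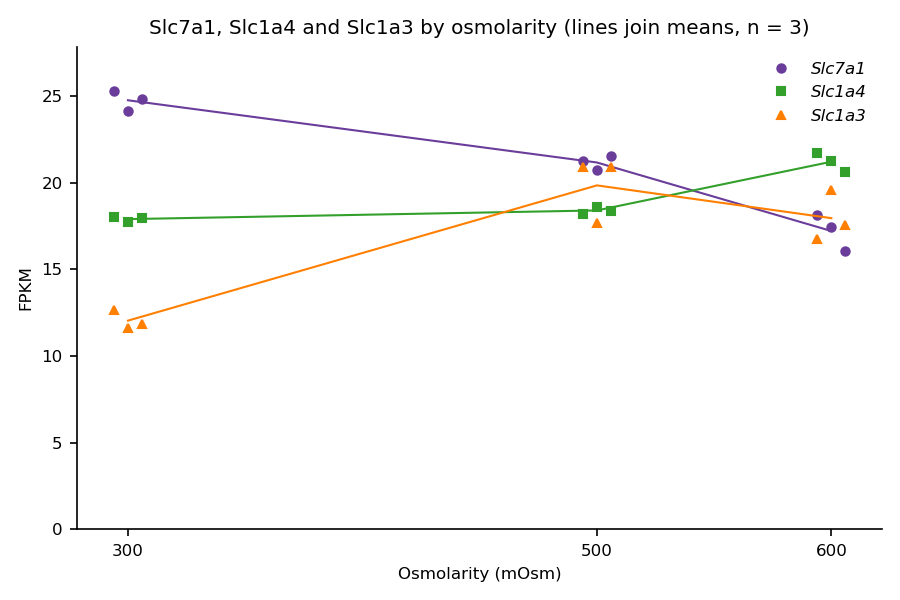
FPKM (vertical axis, from 0) of Slc7a1, Slc1a4 and Slc1a3 against osmolarity (mOsm), with 1 point per library and lines that join the means of 3 libraries. Slc7a1 goes from the highest of the 3 at 300 mOsm (24.8 FPKM) to 17.2 FPKM at 600 mOsm, where Slc1a4 is highest at 21.2 FPKM.

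Genes with the pattern most like a member were sought among the 8431 other genes whose average log2 CPM reached 3, by the distance between their log2 fold changes at 500 and 600 mOsm against iso-osmolar, for the 3 members with the greatest change. For Slc1a3 they were Nipbl (0.70 at 500 and 0.60 at 600 mOsm, distance 0.0210), which encodes the cohesin loader, Kitl (0.71 and 0.62, distance 0.0223), the ligand of the Kit receptor, and Smyd4 (0.69 and 0.61, distance 0.0334). For Slc7a1 they were the kinase Dyrk1a (-0.23 and -0.50, distance 0.00737), the VEGF receptor Flt1 (-0.23 and -0.50, distance 0.00839) and the dynein regulator Ndel1 (-0.21 and -0.51, distance 0.0128). These distances are smaller than the SE of the members' own fold changes (0.072 for Slc1a3, 0.047 and 0.048 for Slc7a1). Which genes come out nearest is therefore not settled. The search was not repeated after the correction for GC content and length, where Slc7a1 changed by -0.30 at 600 mOsm. For Slc7a7, itself not called, the nearest genes were the matrix proteoglycan Ogn (distance 0.0834), the peptidase Pgpep1 (distance 0.117) and the guidance factor Sema3a (distance 0.126). The fold changes of Slc7a7 rest on 5 to 19 counts per library, with an SE of 0.41 at 500 mOsm and 0.38 at 600 mOsm. Its 3 nearest genes are therefore not read as sharing its pattern.

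Of 14 other Slc7, Slc3 and Slc1 genes, 2 had enough counts to be tested. Slc1a2, the main glutamate transporter of astrocytes, averaged only 0.0205, 0.0721 and 0.0147 FPKM in the 3 treatments. It passed the filter through the 500 mOsm libraries, where it is highest, so its calls (higher at 500 mOsm, lower at 600 than at 500 mOsm) are not read as a result. Slc7a11, the cystine carrier of the same heavy chain, was not called (0.09 at 500 mOsm and 0.38 at 600 mOsm, edgeR adjusted p = 0.720 and 0.0746).

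Of 16 carriers of cationic or large neutral amino acids from other families, 10 were tested. At 500 mOsm 2 rose and 2 fell, at 600 mOsm 2 rose and 1 fell, and 1 was lower at 600 than at 500 mOsm. Beside them, 13.2% of all genes tested were called higher and 14.8% lower at 500 mOsm, 15.1% and 20% at 600 mOsm and 11.9% and 17.2% between the intensities, and the list's median log2 fold changes were -0.18, -0.13 and 0.05. Slc16a10, the exporter of aromatic amino acids, accounts for 1 of the rises at 500 mOsm and for the gene lower at 600 than at 500 mOsm. It too reached the filter through its 500 mOsm libraries, at 0.0705 ± 0.0173, 0.164 ± 0.0137 and 0.0566 ± 0.00943 FPKM (SD, n = 3 each), and is not read further. Lysosomal carriers went both ways. The cystine exporter Ctns rose 0.40 at 500 and 0.38 at 600 mOsm (edgeR adjusted p = 0.0380 and 0.0378) and the arginine sensor and carrier Slc38a9 rose 0.48 at 600 mOsm (adjusted p = 0.0128). The lysosomal exporter of cationic amino acids Pqlc2 changed by -0.27 at 500 mOsm (adjusted p = 0.0428), as did Slc36a4 by -0.37 at 600 mOsm (adjusted p = 0.0296) and the mitochondrial carrier Slc25a29 by -0.95 at 500 mOsm (adjusted p = 0.00602).

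Arginine and polyamine metabolism follows the cationic carriers, and 15 of its 24 listed genes were tested. At 500 mOsm 2 rose and none fell, at 600 mOsm 1 rose and none fell, and between 600 and 500 mOsm 1 was higher and 2 were lower. Of all genes tested, 13.2% were called higher and 14.8% lower at 500 mOsm, 15.1% and 20% at 600 mOsm and 11.9% and 17.2% between the intensities, and the list's median log2 fold changes were 0.05, 0.02 and 0.01. Sat1, which acetylates polyamines for export, was at 26.4 ± 1.46 FPKM in iso-osmolar libraries, 63.6 ± 5.63 at 500 mOsm and 25.7 ± 2.48 at 600 mOsm (SD, n = 3 each). Its log2 fold change was 1.27 ± 0.077 (SE) at 500 mOsm (edgeR adjusted p = 1.04e-07), and 600 mOsm differed from 500 mOsm by -1.29 ± 0.077 (adjusted p = 1.11e-07). Amd1, which makes the aminopropyl donor, rose 0.39 at 500 mOsm (edgeR adjusted p = 0.0023) and was lower at 600 than at 500 mOsm (-0.35, adjusted p = 0.00524). Oaz1, the antizyme that limits polyamine uptake and ornithine decarboxylase, rose 0.29 at 600 mOsm (adjusted p = 0.00722), and Ass1, of arginine synthesis, was higher at 600 than at 500 mOsm (0.37, adjusted p = 0.0366).

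All 15 genes listed for glutamine and glutamate metabolism were tested. At 500 mOsm 2 rose and 4 fell, at 600 mOsm 2 rose and 6 fell, and between 600 and 500 mOsm 1 was higher and 3 were lower. The shares over all genes tested were 13.2% higher and 14.8% lower at 500 mOsm, 15.1% and 20% at 600 mOsm and 11.9% and 17.2% between the intensities, and the list's median log2 fold changes were 0.0069, -0.10 and -0.02. Glutathione synthesis genes were among those that fell, with Gclc at -0.20 at 500 mOsm and -0.23 at 600 mOsm (edgeR adjusted p = 0.0037 and 0.00152) and Gclm at -0.42 at 600 mOsm (adjusted p = 2.45e-05). Glul, glutamine synthetase, rose 0.18 at 500 mOsm (edgeR adjusted p = 0.0231) and was lower at 600 than at 500 mOsm by -0.23 (adjusted p = 0.0072). The purine enzyme Ppat fell at both intensities (-0.39 and -0.29, edgeR adjusted p = 0.000472 and 0.00353) and so did the transaminase Got1 (-0.19 and -0.21, adjusted p = 0.0232 and 0.0152). Gpt2 rose at both (0.19 and 0.17, edgeR adjusted p = 0.00843 and 0.0153), Aldh18a1, of proline synthesis, rose at 600 mOsm (0.18, adjusted p = 0.00565), and Asns, asparagine synthetase, was higher at 600 than at 500 mOsm (0.20, adjusted p = 0.0102).

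Leucine and arginine brought in by these carriers are read by sensors that place the kinase mTORC1 on the lysosome, and 30 of 32 listed genes of this machinery were tested. At 500 mOsm 4 rose and 3 fell, at 600 mOsm 6 rose and 2 fell, and between 600 and 500 mOsm 5 were higher and 3 lower. Over all genes tested, 13.2% were higher and 14.8% lower at 500 mOsm, 15.1% and 20% at 600 mOsm and 11.9% and 17.2% between the intensities, and the list's median log2 fold changes were 0.03, 0.04 and -0.0072. Among the sestrins, inhibitors of this pathway, Sesn1 and Sesn2 moved in opposite directions at 500 mOsm, and Sesn3 was not called in any comparison (-0.12 at 500 mOsm, edgeR adjusted p = 0.605). Sesn1 rose 1.21 ± 0.11 (SE, edgeR adjusted p = 3.17e-06) and Sesn2 changed by -0.68 ± 0.10 (adjusted p = 0.000233). Between 600 and 500 mOsm both differed again, Sesn1 by -0.98 (edgeR adjusted p = 2.31e-05) and Sesn2 by 0.47 (adjusted p = 0.00443). Fnip2, a partner of folliculin, fell at both intensities (-0.93 and -0.96, edgeR adjusted p = 2.44e-06 and 2.21e-06), and Flcn, folliculin itself, at 500 mOsm (-0.40, adjusted p = 0.000759). Rragc, 1 of the Rag GTPases, was 17.9 ± 0.993 and 17.5 ± 0.693 FPKM in iso-osmolar and 500 mOsm libraries and 10.3 ± 0.986 FPKM at 600 mOsm (SD, n = 3 each), with a log2 fold change of -0.77 against iso-osmolar and -0.74 against 500 mOsm (edgeR adjusted p = 4.97e-06 and 7.92e-06). Rptor rose 0.25 at both intensities (edgeR adjusted p = 0.0037 and 0.00361), Gatsl2, an arginine sensor relative, rose 0.43 at 500 mOsm (adjusted p = 0.00159), and the GATOR2 genes Wdr24 and Sec13 rose at 600 mOsm (0.29 and 0.14, adjusted p = 0.0017 and 0.0151).

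**Figure D5:**
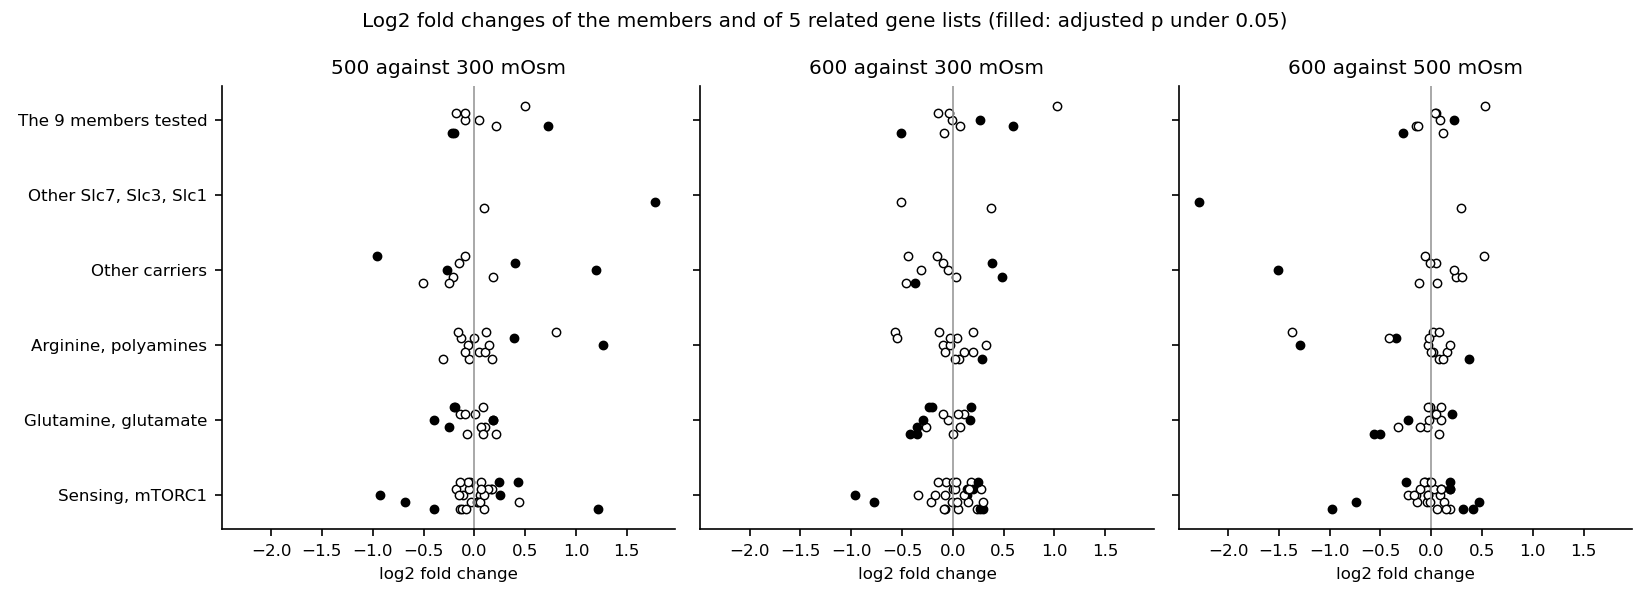
Log2 fold changes (horizontal axis) in the 3 comparisons for the 9 members tested and for the tested genes of 5 lists, with 1 point per gene, spread vertically within a list for legibility and filled where the edgeR adjusted p was under 0.05. In each list, filled points lie on both sides of 0 in some comparison or other, and the points farthest from 0 in the other Slc7, Slc3, Slc1 and other carrier rows are Slc1a2 and Slc16a10, which passed the filter through their 500 mOsm libraries, in both comparisons that include 500 mOsm. Sat1 lies at 1.27 at 500 against 300 mOsm and at -1.29 at 600 against 500 mOsm.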

How the data were processed

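The authors deposited 1 table with the read count of each gene in each library, not normalized, and the FPKM they made from it. FPKM equalled the count divided by gene length and library total. The submitters' processing notes name CASAVA 1.8, STAR and mm10, and the counting tool and its strand setting are not given in the sources used here. The authors' table also holds their fold changes, p-values and group means, which were not used.

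In R 4.3.3, TMM scaling, filterByExpr and the quasi-likelihood test of edgeR 4.0.16 were applied to the counts of all 9 libraries, modelled by treatment, with Benjamini-Hochberg adjustment over 13082 genes. The code was tested on simulated data. Log2 ratios of FPKM were compared by exact permutation. Depth was at least 21716042 counts per library, with a biological coefficient of variation of 0.0756.

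The members, gene lists and tests were chosen with earlier results of these data known. Named genes are all members, up to 3 genes per direction and comparison with the smallest p among the calls of each list, and the 3 nearest patterns of each of 3 members. Where such a gene was called in several comparisons, some of its values are left out, and 1 gene that the rule names is not reported here. Alternatives were RLE factors, library size alone, no filter, at least 10 counts in every library, DESeq2 1.42.0, limma 3.58.1 on log2(FPKM + 1) or log2(FPKM + 0.1), 2 groups only, the replicate number as a block, stricter thresholds and each library left out. A correction for GC content and length by lowess (span 0.3) was added after the data were seen. Sequences are from RefSeq. Protein sequences were not analysed here.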

Additional observations from a re-analysis of the deposited data

How the results depend on the processing

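Of 502 recomputed fold changes of members, 475 kept their direction and their side of the threshold. The calls of Slc7a1, Slc3a2, Slc1a3 and Slc1a4 held in all of them, apart from Slc7a1 between 600 and 500 mOsm after the correction for GC content and length (-0.10). In 19 a further member was called, and 7 changed sign, all of them uncalled. Those were Slc7a5 at 600 mOsm against iso-osmolar without replicate 2 of con (0.00456) or of hi600 (0.0173), Slc7a6 in that comparison after the GC and length correction (0.0610), and between 600 and 500 mOsm, Slc7a2 (0.0818) and Slc1a5 (-0.0229) after that correction and Slc1a5 without replicate 3 of lo500 (-0.0204) or of hi600 (-0.0162). With each library left out, that value of Slc7a5 ran from -0.0325 to 0.0173 and that of Slc1a5 from -0.0204 to 0.102. The cause was not tested.

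The number of members called was 3 at 500 mOsm, 3 at 600 mOsm and 2 between them. When a log2 fold change of 1 or more in size was also asked for, edgeR and DESeq2 each called 0 in every comparison. At an unadjusted p under 0.05, edgeR then gave 0, 1 (Slc7a7, which passed the filter through its stressed libraries) and 0. After the GC and length correction the number called was 6, 6 and 1, beside 4399, 4947 and 4121 of all 13022 genes tested. With each library left out, the number of members called ran from 3 to 5 at 500 mOsm, from 3 to 4 at 600 mOsm and from 2 to 3 between them. The 5 came without replicate 2 of lo500 (Slc7a2 and Slc1a5 added), where 3242 of 13320 genes were called. Over all genes, the number called in these fits ran from 3156 to 3895, from 3567 to 4692 and from 2950 to 3890. The difference of the log2 Slc3a2 ratio ran from -0.14 to -0.09 at 500 mOsm, from -0.09 to -0.06 at 600 mOsm and from 0.01 to 0.06 between them.

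No sign was seen that the replicate numbers pair the libraries. Deviations of same-numbered libraries from their group means correlated at -0.198 on average over 9 pairs (-0.535 to 0.450). Those of other pairs correlated at 0.101 over 18 (-0.273 to 0.506), and 1 of 9 libraries correlated best with its own number. Because each group was centred on its own mean, these averages offset each other, and they cannot show that pairing was absent. A batch under other numbers was not tested. With the replicate number as a block, 3, 3 and 2 members were called, as without it, beside 3111, 3798 and 3089 of all 13082 genes. Depth limits Slc7a3 and Slc7a7, which had at most 19 counts in a library.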
